A study of Mus musculus with 2 samples.

Results

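The genes described here code for the subunits of 5 kinds of chromatin complex in mouse embryonic stem cells: Polycomb repressive complex 2 (PRC2, 9 genes), Polycomb repressive complex 1 (PRC1, 13 genes), the trithorax-type histone methyltransferase core (5 genes), the BAF remodelling complex (9 genes) and the NuRD complex (7 genes), with Chd1 and Chd7 as 2 remodellers of the CHD family that are not NuRD subunits. They were chosen by name, and all 45 have a row among the 14500 gene symbols of the deposited table. The cells were of the line 46C, which carries a fluorescent reporter in the Sox1 locus, at passages 21 to 24, and were grown on gelatin in serum medium with LIF. The control library is titled PB and came from cells with the empty vector. The other is titled PB-Gbx2 and came from cells given a vector for Gbx2, a homeobox transcription factor. Each group has 1 library, so no difference has a replicate check or a p-value here, and the vector and the culture cannot be told apart. Whether a culture was a clone or a pool is not given in the sources used here.

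Polycomb complexes keep developmental genes silent: PRC2 methylates a lysine in the tail of histone H3, and PRC1 ubiquitinates histone H2A and compacts chromatin. Trithorax-type complexes act in the opposite sense and methylate another lysine of histone H3 at active and poised promoters. BAF and NuRD use ATP to move nucleosomes, and NuRD also carries histone deacetylases. In embryonic stem cells many promoters of lineage genes carry both Polycomb and trithorax marks, and the cells use particular subunit versions, such as the BAF complex built on Smarca4, Smarcc1 and Arid1a.

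The source names of the samples contradict the titles: the library titled PB is described as Gbx2-overexpressing and the library titled PB-Gbx2 as the control. Groups follow the titles, and every direction would turn around if the source names were right. Gbx2 itself stood at a normalized level of 345 in PB and 1178 in PB-Gbx2, which goes with the titles. The level is a whole-number score that the authors normalized so that both libraries have the same sorted values, and read depth is unknown. The 10 embryonic stem cell markers were present. Pou5f1 stood at 9446 and 10597 and Sox2 at 9894 and 10302, Tfcp2l1 at 12900 and 11892 and Utf1 at 3843 and 3430, and Nanog (8918 and 19872), Klf4 (4701 and 10924) and Zfp42 (8320 and 16671) were at least 2-fold higher in PB-Gbx2. Markers of other cells were in the table in part: the summed level was 90706 and 127378 for the 10 stem cell markers, 2403 and 1730 for 7 of 12 fibroblast markers, 2612 and 2096 for 5 of 8 neural, 252 and 637 for 5 of 8 mesoderm, 102 and 169 for 3 of 8 endoderm, and 1026 and 487 for 4 of 9 trophectoderm markers, in PB and PB-Gbx2. The remaining markers, among them Col3a1, Dcn, Pax6, Sox17, Mixl1 and Cdx2, have no row in the table. The part of other cells in the differences below was not tested, and in these bulk libraries fewer cells of a type and less RNA per cell cannot be told apart.

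Of the 45 genes, 28 differed by less than 1.2-fold between the libraries, where 48.6% of all genes did. Here a gene is called where its log2 ratio of level + 1, PB-Gbx2 over PB, reaches a 1.5-fold or a 2-fold difference, and a smaller fold is given only as the ratio of its levels. The 3 genes at least 1.5-fold higher in PB-Gbx2 were the PRC2 scaffold Suz12, the BAF subunit Arid1b and the remodeller Chd7. The 3 genes at least 1.5-fold lower were the PRC1 subunits Cbx8 and Pcgf5 and the PRC2 accessory subunit Phf19. Over all genes of the table, 11.6% were at least 1.5-fold higher and 12.2% lower. At 2-fold, 0 of the 45 were higher, where 5.14% of all genes were, and Cbx8 was lower, where 5.26% were.

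Of the 6 genes past 1.5-fold, all but Suz12 had a mean level under 1000, where ratios scatter more. Among the 45 genes, 32 had a mean level of at least 1000, and of these Suz12 alone passed 1.5-fold. Among all 3942 genes at that level, 3.65% were at least 1.5-fold higher and 3.53% lower, so 1 of 32 is near the background. Within 1.2-fold lay 22 of the 32 genes, beside 67.9% of all genes at that level. The median log2 ratio was 0.06 over the 45 genes and 0.00 over all genes. By complex it was 0.03 for PRC2, 0.09 for PRC1, 0.10 for trithorax, 0.06 for BAF and -0.03 for NuRD. To set each ratio beside those of comparably expressed genes, all genes were split by mean level into 20 bins of equal size and ranked by ratio within a bin. Of the 45 genes, 42 lay between percentiles 5 and 95 of their bin. Suz12 and Arid1b lay above that range and Cbx8 below it. By its definition the range leaves out about the highest 5% and the lowest 5% of all genes. Beside these shares, 2 of the 45 above and 1 below do not set the 45 genes apart.

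**Figure D1:**
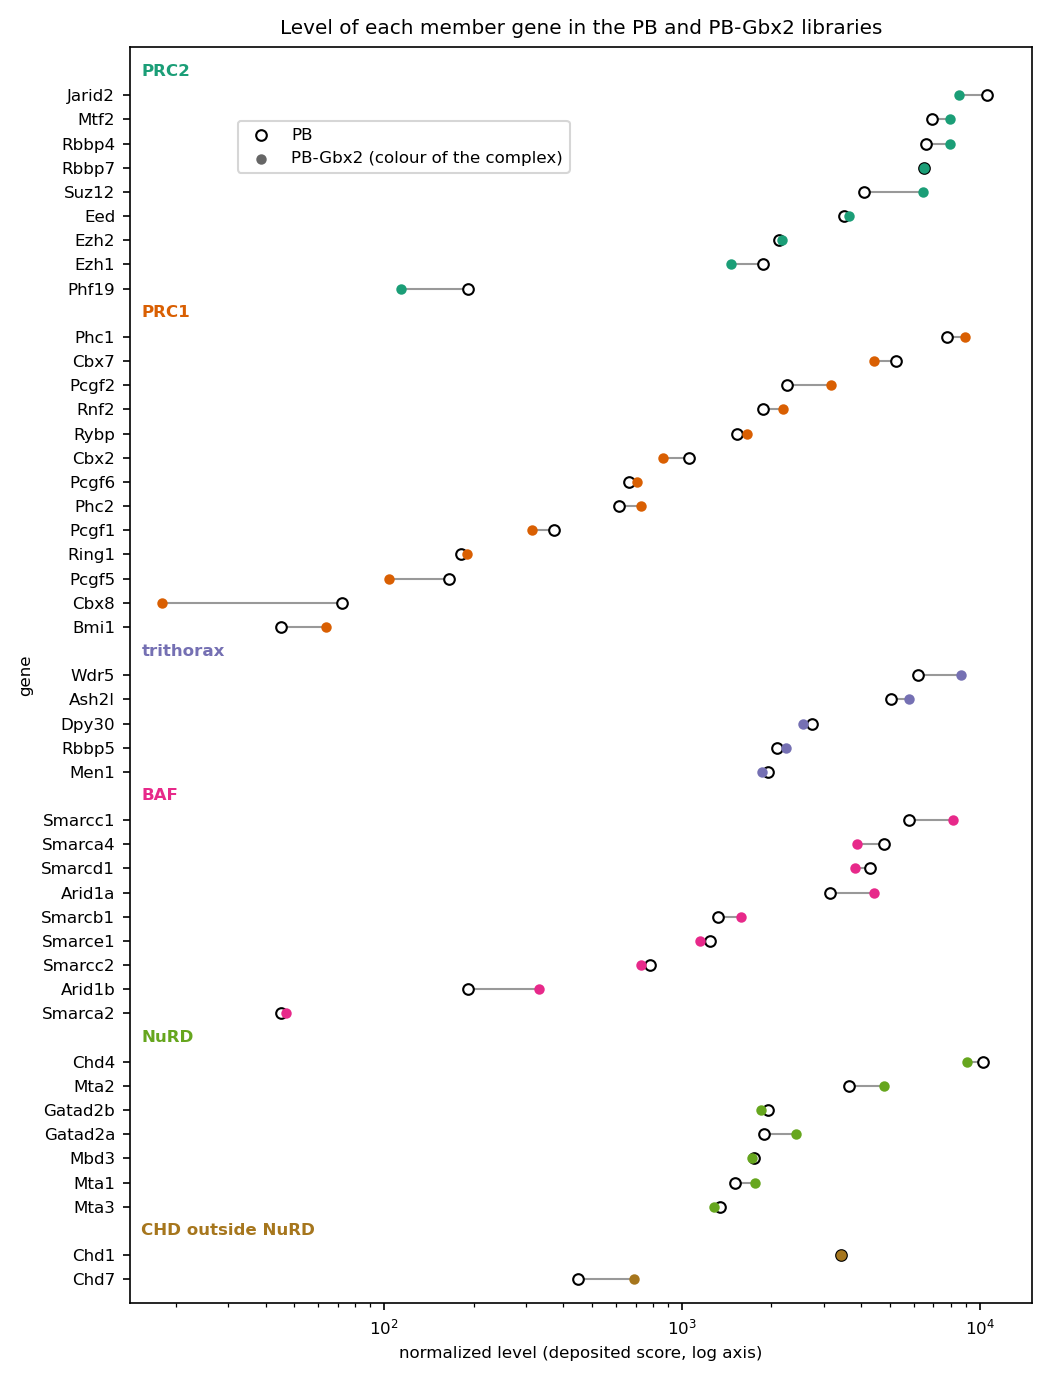
Normalized level of each of the 45 genes (log axis) in PB (open circles) and PB-Gbx2 (filled circles, coloured by complex), 1 library each, ordered within a complex by the level in PB. The circles of most genes lie close together, and the widest gap is that of Cbx8, from 72 to 18.

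**Figure D2:**
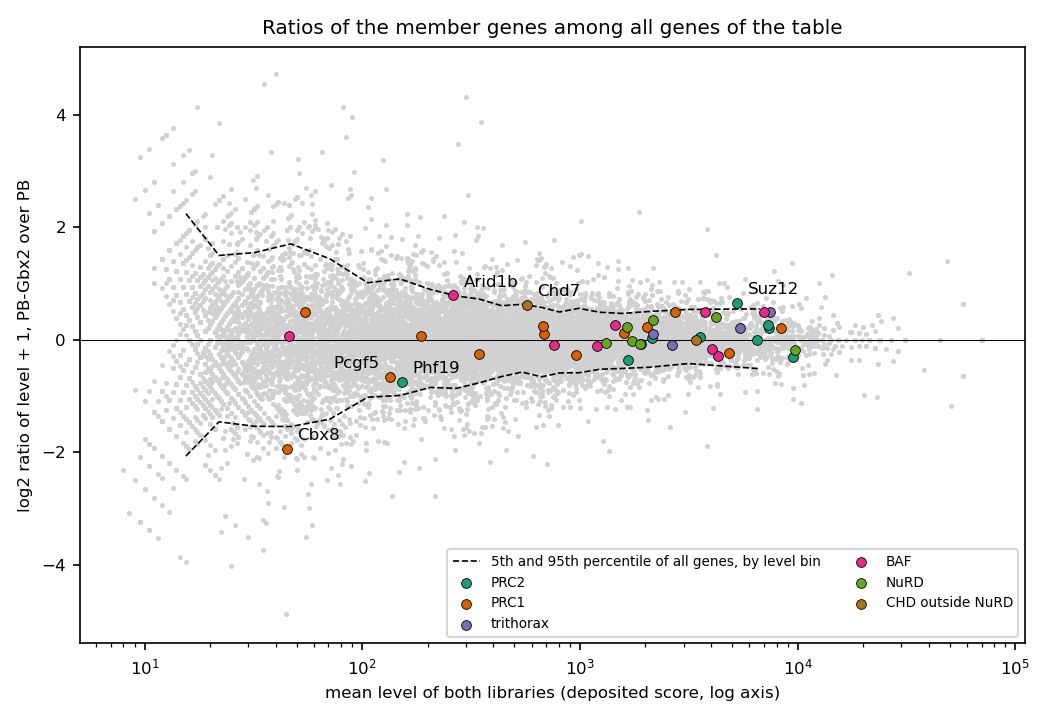
Log2 ratio of level + 1 (PB-Gbx2 over PB) against the mean level (log axis) for all 14500 genes (grey) and the 45 genes (coloured by complex), with dashed lines at the 5th and 95th percentile of all genes within each of 20 level bins. Suz12 and Cbx8 lie outside the lines, Arid1b just above the upper one, and the spread of all genes widens towards low levels.

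The promoters of these genes are mostly rich in CpG dinucleotides, a feature that the choice of genes did not use. RefSeq (build GRCm38.p6) gave 52 start sites for 37 of the 45 genes, and the 250 bases before each start were examined. A GC content of at least 50% with an observed to expected CpG ratio of at least 0.6 was found in 41 of the 52 windows (78.8%). The share was 58.9% over 13321 windows of genes in the table and 31.0% over all 32851 windows. These shares were not matched for level, which had a median of 2026.5 over the 45 genes and 386 over all genes of the table. Windows of nearby starts of the same gene, such as those of Dpy30 and Men1, overlap and were counted separately. Some windows lie in annotated exons of their own gene, wholly so for Phc1 and 1 start of Dpy30, and were counted too. For 46 of the 52 starts, that of Phf19 not among them, the bases after the start were found in a GENCODE M21 transcript of the gene. The sequence TAATTA, a core letter pattern bound by many homeodomain proteins and identical on both strands, was in 3 of the 52 windows (5.77%), those of Phf19, Rbbp5 and 1 start of Gatad2b. It was in 2.49% of windows of genes in the table and 4.84% of all windows. TAATTG, searched on both strands and distinct from TAATTA at any one position, was in 0 of the 52 windows, 4.26% of those of genes in the table and 7.17% of all.

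Printed here are the promoters of the genes past 1.5-fold that have a single listed start (Suz12, Cbx8 and Phf19; that of Arid1b is left out because 135 of its 250 bases lie in annotated exons of the gene) and, as a CpG-poor contrast, that of Pcgf2, which was 1.41-fold higher. Each run gives the bases from 250 to 61 before the start, on the gene's strand, and capitals mark CG and TAATTA. The windows of Cbx8 and Phf19 also hold 56 and 50 bases in annotated exons of the gene, all outside the printed runs. Those of Suz12 (chr11:79992856-79993045, plus strand), Cbx8 (chr11:119040974-119041163, minus), Phf19 (chr2:34914037-34914226, minus) and Pcgf2 (chr11:97699709-97699898, minus) hold 31, 18, 24 and 5 CG pairs.
Suz12: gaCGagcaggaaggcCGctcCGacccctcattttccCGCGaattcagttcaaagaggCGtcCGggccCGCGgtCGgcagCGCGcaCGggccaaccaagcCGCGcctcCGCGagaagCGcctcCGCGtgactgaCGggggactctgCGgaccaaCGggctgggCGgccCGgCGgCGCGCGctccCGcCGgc
Cbx8: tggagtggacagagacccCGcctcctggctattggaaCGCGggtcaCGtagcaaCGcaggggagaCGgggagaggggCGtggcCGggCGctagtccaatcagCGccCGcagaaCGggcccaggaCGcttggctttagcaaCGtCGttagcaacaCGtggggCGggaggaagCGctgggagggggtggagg
Phf19: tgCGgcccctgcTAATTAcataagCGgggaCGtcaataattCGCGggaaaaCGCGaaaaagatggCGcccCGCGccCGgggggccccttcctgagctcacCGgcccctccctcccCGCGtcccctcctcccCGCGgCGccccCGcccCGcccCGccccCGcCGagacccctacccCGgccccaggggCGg
Pcgf2: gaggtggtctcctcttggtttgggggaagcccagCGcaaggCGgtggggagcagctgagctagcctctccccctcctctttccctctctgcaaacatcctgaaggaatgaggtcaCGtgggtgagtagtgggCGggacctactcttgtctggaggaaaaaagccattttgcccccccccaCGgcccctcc
Suz12, which was higher, and Cbx8 and Phf19, which were lower, all have CpG-rich promoters, and the TAATTA of Phf19 lies near the far end of its run.

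Within PRC2, the scaffold Suz12 stood apart from the catalytic and histone-binding subunits. Suz12, which holds the complex together, stood at 4092 in PB and 6446 in PB-Gbx2, 1.58-fold higher. This placed it at percentile 97.0 of its level bin. Eed, which binds methylated histone tails, stood at 3509 and 3633, and the methyltransferase Ezh2 at 2126 and 2164, so both differed by less than 1.05-fold. Ezh1, the second methyltransferase, went the other way, from 1878 to 1458 (1.29-fold lower). The core subunits thus had unequal ratios in these libraries.

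The accessory PRC2 subunits also differed in direction. Jarid2, a non-enzymatic relative of the histone demethylases that helps to recruit PRC2, stood at 10586 in PB and 8508 in PB-Gbx2, 1.24-fold lower. Mtf2, a Polycomb-like protein that binds CpG-rich DNA, stood at 6896 and 7954. Its relative Phf19 went from 192 to 114, 1.68-fold lower, at percentile 10.8 of its level bin. The histone chaperone Rbbp4, shared with NuRD, stood at 6629 and 7932, and Rbbp7 at 6516 in both libraries.

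Further PRC2 genes were taken from a list that holds none of the 45. Of 5, 2 were at least 1.5-fold higher and 0 lower, where 11.6% and 12.2% of all genes were. E130012A19Rik, now named Epop, a PRC2 cofactor that binds elongins, stood at 2881 and 5789 (2.01-fold higher, percentile 98.8). Aebp2, which joins PRC2 together with Jarid2, stood at 2372 and 3753 (1.58-fold). Phf1 stood at 396 and 464, Lcor at 136 and 96 and Lcorl at 341 and 252. Jarid2, the partner of Aebp2 in one form of the complex, did not reach 1.5-fold. Suz12, Aebp2 and E130012A19Rik were the PRC2 genes beyond 1.5-fold among those with a mean level of 1000 or more. Over all genes at that level, 3.65% were at least 1.5-fold higher and 3.53% lower. Whether PRC2 genes depart from those shares was not tested.

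In PRC1, the 2 genes past 1.5-fold, Cbx8 and Pcgf5, had mean levels under 1000, and no subunit above that level passed it. Thus 0 of the 13 genes were higher and 2 lower by that fold, where 11.6% and 12.2% of all genes were. The ubiquitin ligase Rnf2 (RING1B) stood at 1871 and 2182, and its paralog Ring1 at 182 and 190. Rybp, which marks the non-canonical forms of PRC1, stood at 1528 and 1656. None of these 3 differed by more than 1.17-fold.

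The Pcgf proteins pair with the ligase and define the forms of PRC1. Pcgf2 (Mel18) stood at 2260 and 3182, 1.41-fold higher at percentile 94.5. Pcgf6 stood at 666 and 709 and Pcgf1 at 373 and 314. Pcgf5 went from 165 to 104, 1.59-fold lower, and Bmi1 from 45 to 64, 1.42-fold higher, at percentiles 13.9 and 74.3, inside the spread of their level bins. As a share of the summed level per kilobase (of the longest coding transcript) of the 5 Pcgf genes, Pcgf2 made up 54.7% in PB and 64.5% in PB-Gbx2, Pcgf1 24.4% and 17.2%, and Pcgf6 18.6% and 16.5%. Pcgf5 and Bmi1 made up under 2% each on this scale. Pcgf2 led these 5 genes in both libraries. Pcgf3, a further Pcgf gene outside the 45, was left out of the shares and stood at 1327 in both libraries. Without division by length, Pcgf6 stood above Pcgf1 in both libraries.

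Among the chromobox and polyhomeotic subunits of canonical PRC1, Cbx8 had the largest ratio of all 45 genes. Cbx7, the chromobox protein typical of embryonic stem cells, stood at 5234 and 4419, 1.18-fold lower. Cbx2 went from 1054 to 867, 1.22-fold lower. Cbx8, which increases on differentiation, went from 72 to 18, 4-fold lower, at percentile 2.21 of its level bin. Among all genes with a mean level under 100, as Cbx8 had, 26.1% were at least 1.5-fold lower. Of the 3 Cbx genes, Cbx8 alone passed 1.5-fold. Cbx7 made up 83.9% of their summed level per kilobase in PB and 84.9% in PB-Gbx2, so its lead was alike in both. Phc1, which polymerizes and clusters Polycomb chromatin, stood at 7787 and 8933, and Phc2 at 616 and 732.

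Of 22 further genes listed with PRC1, 3 were at least 1.5-fold higher and 3 lower, where 11.6% and 12.2% of all genes were. Their median log2 ratio was 0.03. The list also holds genes of a deubiquitinase complex separate from PRC1, Asxl2 and Ogt among them, so these values are not those of PRC1 alone. Mga, the DNA-binding scaffold of the Pcgf6 form of PRC1, stood at 7515 and 3938 (1.91-fold lower, percentile 1.10). Its companions in that form, L3mbtl2 (2534 and 2564), E2f6 (466 and 436) and Max (1864 and 1954), differed by less than 1.1-fold, as did Pcgf6. Ogt, the O-GlcNAc transferase found with the deubiquitinase complex, was 1.56-fold lower (9882 and 6334), and Phc3 1.52-fold lower (972 and 640). Asxl2, of the same deubiquitinase complex, was 1.57-fold higher (999 and 1573) and Scml2 1.61-fold higher (140 and 226). Yaf2, the third of the higher genes, went from 47 to 78. Mga had the largest ratio of these 22 in either direction.

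The trithorax-type core differed by less than 1.5-fold throughout. All 5 genes had a mean level of at least 1000, where 3.65% of all genes were higher and 3.53% lower by that fold. A count of 0 among 5 is thus near the background. Wdr5, the adaptor that holds the methyltransferase, stood at 6222 and 8695, 1.40-fold higher at percentile 94.1. Ash2l stood at 5046 and 5816, Rbbp5 at 2092 and 2243, and Dpy30 at 2728 and 2544. These 3, which with Wdr5 form the core shared by all such complexes, differed by at most 1.15-fold. Men1 (menin), which tethers the Kmt2a and Kmt2b complexes, stood at 1951 and 1854. Of 16 further trithorax genes in the table, Kansl1, of a histone acetyltransferase complex, was at least 1.5-fold higher (764 and 1260, 1.65-fold) and 0 were lower. Over all genes, 11.6% were higher and 12.2% lower by that fold. The median log2 ratio of the 16 was 0.03. The methyltransferases Kmt2a (2622 and 2429), Kmt2b (4238 and 4690), Kmt2c (1978 and 1748) and Kmt2d (3679 and 3744) lay within 1.14-fold.

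In BAF, Arid1b alone passed 1.5-fold, and Smarcc1 and Arid1a came closest to it among the other subunits. Thus 1 of the 9 genes was higher and 0 lower by that fold, where 11.6% and 12.2% of all genes were. Smarcc1, a scaffold of the embryonic stem cell form of BAF, stood at 5804 and 8143, 1.40-fold higher at percentile 94.2. Arid1a, a DNA-binding subunit, stood at 3140 and 4406, also 1.40-fold higher. Its paralog Arid1b went from 192 to 332, 1.73-fold higher at percentile 95.4. All 3 lay near the upper edge of their level bins.

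The ATPase Smarca4 (BRG1) stood at 4759 and 3874, 1.23-fold lower, and the alternative ATPase Smarca2 (BRM) at 45 and 47. The core subunit Smarcb1 stood at 1320 and 1576 and Smarce1 at 1244 and 1147. Smarcd1 stood at 4297 and 3822, and Smarcc2, the scaffold more typical of differentiated cells, at 783 and 732. None of these 6 subunits differed by more than 1.23-fold.

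Of 17 further BAF genes in the table, Gltscr1 (now Bicra), of the non-canonical form of BAF, was higher (155 and 252, 1.63-fold). Phf10, of the PBAF form, was 1.63-fold lower (1438 and 882). Dpf1, a subunit known from neuronal BAF, was 1.58-fold lower (710 and 448). Actl6a, the actin-like subunit of proliferating cells, stood at 3338 and 2982, and the median log2 ratio of the 17 was 0.03. Past 1.5-fold, 1 of the 17 was higher and 2 were lower, where 11.6% and 12.2% of all genes were.

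NuRD had no subunit past 1.5-fold among the 7 genes. All 7 had a mean level of at least 1000, where 3.65% of all genes were higher and 3.53% lower by that fold. A count of 0 among 7 is thus near the background. Its ATPase Chd4 stood at 10302 and 9088, 1.13-fold lower, and Mbd3, needed to assemble the complex, at 1747 and 1716. Mta2, a scaffold that binds the deacetylases, stood at 3637 and 4774 (1.31-fold higher), Mta1 at 1512 and 1764 and Mta3 at 1340 and 1286. Gatad2a stood at 1893 and 2420 (1.28-fold higher) and Gatad2b at 1940 and 1844. Mta2 and Gatad2a were thus the NuRD genes with the largest ratios, at percentiles 91.9 and 90.2.

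Of 11 further NuRD genes, 2 were at least 1.5-fold higher and 1 lower, where 11.6% and 12.2% of all genes were. The deacetylases Hdac1 (5795 and 4882) and Hdac2 (3194 and 3822) differed by less than 1.2-fold, in opposite directions. The higher genes, Sall1 (1576 and 2564, 1.63-fold) and Zfp296 (867 and 1546, 1.78-fold), are zinc finger factors of pluripotent cells that bind NuRD. The lower one, Chd5, an ATPase best known from neurons, stood at 1030 and 681 (1.51-fold).

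Outside NuRD, Chd1, which keeps embryonic stem cell chromatin open, stood at 3414 in both libraries. Chd7, an enhancer-bound remodeller, stood at 449 and 690, 1.54-fold higher at percentile 94.9. Of 32 further remodellers of the CHD, ISWI, INO80 and related families, 2 were at least 1.5-fold higher and 1 lower. Over all genes, 11.6% were higher and 12.2% lower by that fold. The median log2 ratio of the 32 was -0.01. Ino80b (58 and 120, 2.07-fold) and Ino80c (228 and 358, 1.57-fold) were higher, and Hells, which supports DNA methylation, was lower (14274 and 9467, 1.51-fold). The ISWI ATPase Smarca5 stood at 9092 in both libraries.

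Shares within 18 pairs of related subunits were computed as percentages of the summed level per kilobase of the longest coding transcript of each gene (GENCODE M21). On that scale each pair had the same leading gene in both libraries. Without division by length this held for every pair but Gatad2a and Gatad2b, where Gatad2a made up 49.4% in PB and 56.8% in PB-Gbx2. Ezh2 made up 63.1% of Ezh2 and Ezh1 in PB and 69.1% in PB-Gbx2. Gatad2a made up 59.2% and 66.1% of Gatad2a and Gatad2b, a difference of 6.92 percentage points. Mta2 made up 69.8% and 76.0% of Mta2 and Mta3, and Smarcc1 85.4% and 89.8% of Smarcc1 and Smarcc2. In 14 of the 18 pairs the share differed by less than 5 points on this scale. With the median transcript length the share of Pcgf6 in Pcgf6 and Pcgf5 differed by 9.24 points, in place of 2.98.

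The subunit versions typical of embryonic stem cells dominated in both libraries. Smarca4 made up 99.0% of Smarca4 and Smarca2 in PB and 98.7% in PB-Gbx2, and Arid1a 95.8% and 94.8% of Arid1a and Arid1b. Cbx7 made up 98.7% and 99.6% of Cbx7 and Cbx8, Pcgf2 98.6% in both libraries of Pcgf2 and Bmi1, and Mtf2 97.1% and 98.5% of Mtf2 and Phf19. Cbx8 and Arid1b, which passed 1.5-fold, were the minor partner of their pair in both libraries. For Cbx8 this had to follow, as it was lower by a larger fold than Cbx7. For Arid1b the share in PB was too small for a difference of this size to change the leading gene. The lengths matter for some pairs: with the median in place of the longest transcript, Gatad2a made up 34.7% and 41.7%.

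**Figure D3:**
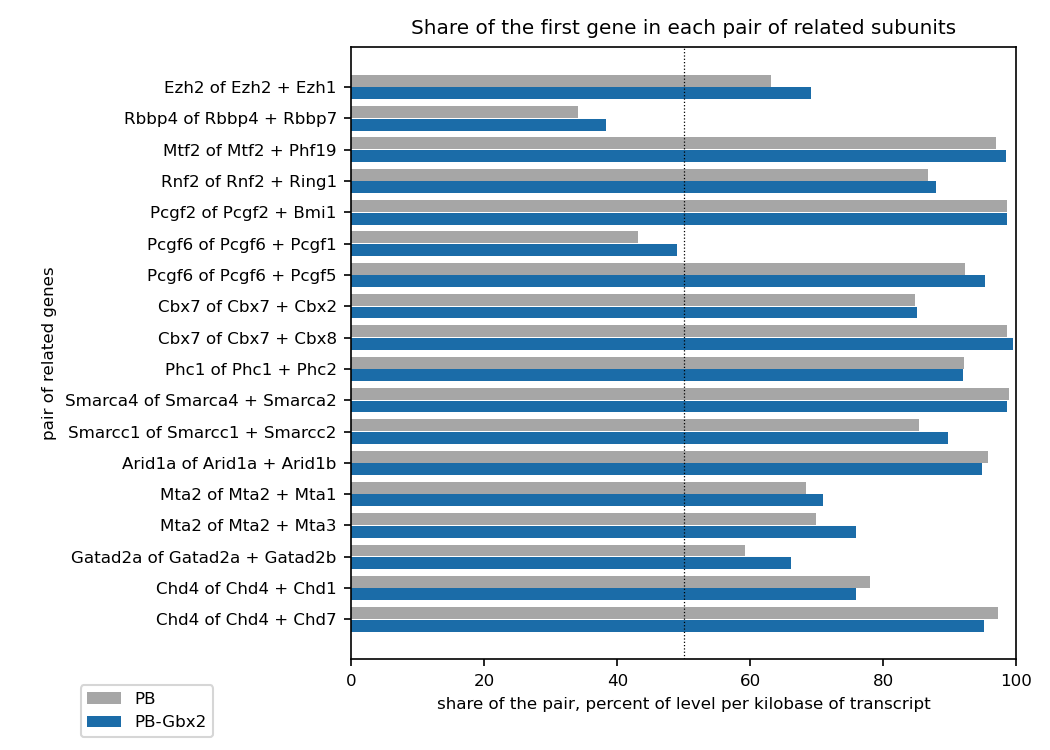
Share of the first gene in each of 18 pairs of related subunits, in percent of the pair's summed level per kilobase of transcript, in PB (grey) and PB-Gbx2 (blue), 1 library each, with a dotted line at equal shares. Bars of both libraries end on the same side of the line in every pair.

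Over the 103 further genes listed with these complexes and remodellers, 11 were at least 1.5-fold higher and 7 lower. Of all genes, 11.6% and 12.2% were, and the median log2 ratio of the 103 was 0.03.

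Genes known to be held under Polycomb control were looked at beside the complexes. Of 102 developmental regulators on a list of such targets, 32 have a row in the table, and 24 of these had a mean level under 100. No row of the table has a mean level under 8, so a gene this low may be listed only because 1 library is higher, and the counts over the 32 describe them and support nothing further. At least 1.5-fold higher were 24 and lower 2, where 24.8% and 26.1% of all genes at a mean level under 100 were. The other 70 genes have no row and were not analysed here.

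Target genes that reached a level of 100 included the SoxB factor Sox21 (44 and 658), the signalling ligand Wnt5a (10 and 170), the pioneer factor Foxd3 (134 and 538), the neurogenic factor Neurod1 (150 and 517), the midbrain factor En2 (49 and 148) and the growth factor Igf2 (154 and 292). These were named for large ratios in either direction, so the size of their ratios is a consequence of how they were picked. Sox21, Wnt5a and En2 reached 100 only in PB-Gbx2, so for these genes the direction is not independent of that cut. Otx2 (492 and 373) was lower. Gata2 (56 and 36) and Ebf1 (34 and 20), chosen after their values were seen, were the targets at least 1.5-fold lower. Whether these values are tied to those of the Polycomb subunits was not tested.

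**Figure D4:**
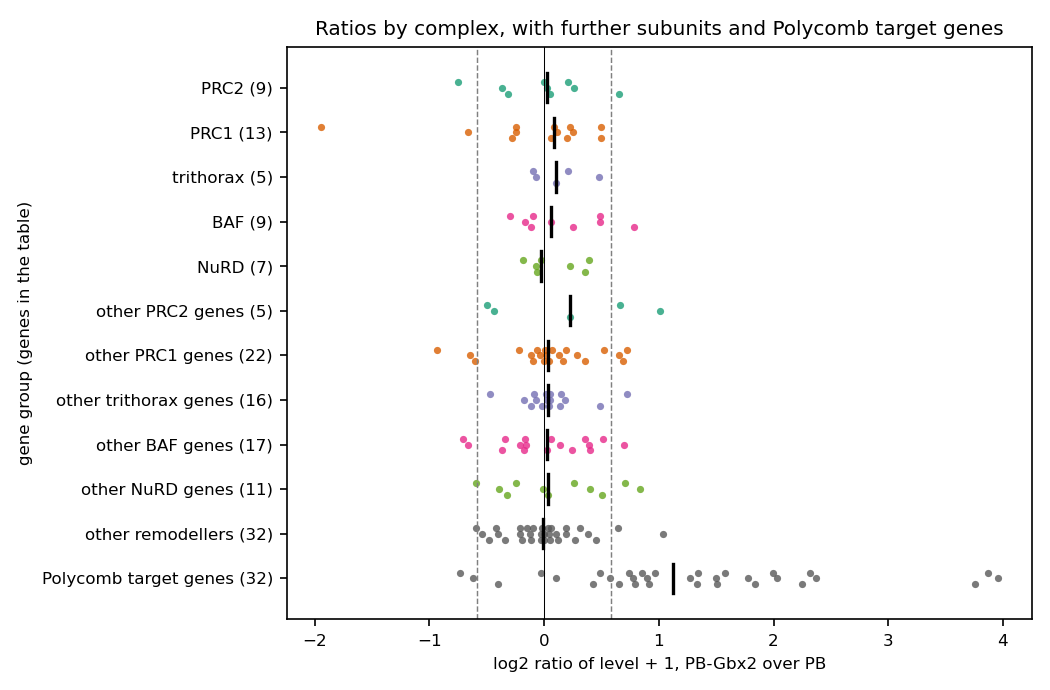
Log2 ratio of level + 1 (PB-Gbx2 over PB) of each gene, by complex for the genes chosen by name. Below are further genes listed with each complex, other remodellers and Polycomb target genes. Vertical offsets within a row carry no value. Black bars are medians and dashed lines mark 1.5-fold. The medians of the 5 complexes lie between -0.03 and 0.10, and that of the 32 target genes in the table at 1.12. Of these 32, 24 had a mean level under 100, and genes this low may be listed only because 1 library is higher. Their median describes them and is not comparable with those of the complexes.

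In the authors' deposited table, 1 of the 45 genes, Suz12, has a p-value under 0.05 (0.0353), where 3.74% of all genes do, and every one of the 45 has an adjusted p-value of 1. Reads of some genes may be shared with other loci: of the stretches of 50 bases in the longest coding transcript, 35.1% for Smarce1, 33.8% for Rbbp4, 31.3% for Pcgf1, 18.5% for Bmi1 and 15.1% for Rbbp7 also occur in transcripts of other genes, such as the overlapping gene Sync for Rbbp4 and the pseudogene Smarce1-ps1 for Smarce1. Levels of these 5 genes are uncertain to that extent. For Suz12 the share was 3.03%, and for 26 of the 45 genes, Arid1b, Cbx8, Chd7, Pcgf5 and Phf19 among them, it was 0.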

How the data were processed

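RNA was sequenced from 1 library titled PB and 1 titled PB-Gbx2. Per the submitters' processing notes, STAR and mm9 were used. Their versions, the annotation, the counter and the authors' test of the p-values are not stated in the sources at hand. The level of a gene in the deposited table is a whole-number score that the authors normalized, and its sorted values are equal in both libraries in all 14501 rows, so depth is unknown and no counting interval can be given. The table also holds the authors' deposited ratio, its log2 (both PB over PB-Gbx2) and p-values.

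Rows with a repeated symbol were summed (14500 genes). The log2 ratio of level + 1, PB-Gbx2 over PB, was called at 1.5-fold and 2-fold (minimum level 1 in the higher library), and no test was run; a fold in the text is a ratio of levels. The members and lists were chosen with earlier results of these data known. Named were all 45 genes, Gbx2 and up to 6 genes per list with the largest ratio past 1.5-fold at a level of at least 100; others were chosen after their values were seen. Lengths and shared 50-base stretches came from GENCODE M21 transcripts, and promoters from RefSeq on GRCm38.p6, a build other than the authors'. Alternatives were other pseudocounts (0.1 and 5), scalings and minimum levels. The calling code was run on simulated levels without noise, which checks the code and says nothing about calls from single libraries. Python 3.11.15, numpy 2.4.6, pandas 2.3.3 and matplotlib 3.10.9 were used.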

Additional observations from a re-analysis of the deposited data

How the results depend on the processing

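With a minimum level of 100 in either library, Cbx8 drops out and the number of genes at least 2-fold lower went from 1 to 0. With a mean level of at least 1000, chosen after seeing the data, 1 gene was at least 1.5-fold higher and 0 lower, and 0 were 2-fold lower, since fewer genes are counted. Under pseudocounts of 0.1 and 5, both rescalings and centring on genes of similar level, the counts past 1.5-fold and 2-fold stayed within 1.5 times those reported. Dropping the minimum level of 1 could not change these counts, as the lowest level of a member was 18. The PRC1 median log2 ratio was 0.20 at a mean level of at least 1000, against 0.09 over all its genes, and the other medians of complexes moved by at most 0.02 under the alternatives run; Chd1 and Chd7 gave none there, as 1 gene was left. No log2 ratio of a member moved by more than 0.20, with a pseudocount of 5. The rescalings moved ratios by at most 5.5e-05, because the deposited values share one distribution, and so say nothing about stability. The trimmed mean left out 30 percent from each side. Of 36 shares of paired genes, 10 moved by at least 10 percentage points with the median transcript length and 5 without division by length. No paired analysis was possible because there is a single library per vector, so none could be omitted either.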
